A study of Mus musculus with 2 samples.

Results

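The CXC chemokine genes Cxcl1, Cxcl2, Cxcl3, Cxcl9, Cxcl10, Cxcl11 and Cxcl16 were followed in cytosolic RNA of mouse macrophages, where Cxcl10 and Cxcl2 messages were the abundant ones and Cxcl3 lay under the detection level. The genes were taken by symbol from the gene tables, which gave 7 genes of 55536 annotated ones, and their transcripts were taken from the transcript tables. The cells were bone marrow-derived macrophages, primary cells grown out of the marrow of C57BL/6J mice. They received lipid A, the part of lipopolysaccharide that Toll-like receptor 4 senses, at 100 ng/ml for 12 h, spent 12 h without it after a wash, and then met 100 ng/ml lipid A again for 75 min. Ribosomal RNA was depleted from the cytosolic RNA, and the remaining RNA was sequenced as total RNA in 2 biological replicates that make up the single group. Both replicates carry the same donor code and separate biosample records, and age and sex were not collected, so whether they came from separate animals is not given and the spread between them may be technical. No library of untreated or once-treated cells was analysed here, so a level says nothing about induction by lipid A.

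CXC chemokines are small secreted proteins with a pair of cysteines that a single residue separates near the start of the mature chain. Ligands with the tripeptide ELR just before that motif bind Cxcr2 and draw neutrophils, whereas Cxcl9, Cxcl10 and Cxcl11 lack it, are induced by interferons and draw activated T cells and natural killer cells through Cxcr3. Cxcl16 is made as a membrane protein with a mucin stalk, binds Cxcr6 and oxidised lipoprotein, and is shed by the proteases Adam10 and Adam17. In macrophages, messages of the ELR ligands are known as early targets of NF-kB that AU-rich elements make short-lived, and Cxcl10 as a target of both NF-kB and interferon signalling.

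The coding sequence at the motif shows the division that orders the results below. Each stretch covers 10 codons of the leading transcript in GENCODE M21 on the mm10 assembly, from the codons of the 3 residues before the first cysteine onward, with the codons of both motif cysteines in capitals. The genomic positions are chr5:90891487-90891516 for Cxcl1, chr5:90904133-90904162 for Cxcl2 and chr5:90786359-90786388 for Cxcl3 (plus strand), chr5:92326830-92326859 for Cxcl9, chr5:92348169-92348198 for Cxcl10, chr5:92361288-92361317 for Cxcl11 and chr11:70459115-70459144 for Cxcl16 (minus strand). All stretches lie within coding exons.
Cxcl1: gagctgcgcTGTcagTGCctgcagaccatg
Cxcl2: gaactgcgcTGTcaaTGCctgaagaccctg
Cxcl3: gagctgcgcTGTcagTGCctgaacacccta
Cxcl9: aatgcacgaTGCtccTGCatcagcaccagc
Cxcl10: acggtccgcTGCaacTGCatccatatcgat
Cxcl11: caggggcgcTGTcttTGCatcggccccggg
Cxcl16: gctggaagtTGTtctTGTgatcgtaccatt

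Read in frame, the residues before the first cysteine are ELR in Cxcl1, Cxcl2 and Cxcl3, NAR in Cxcl9, TVR in Cxcl10, QGR in Cxcl11 and AGS in Cxcl16. The reading frames hold 96, 100 and 100 codons in Cxcl1, Cxcl2 and Cxcl3 and 126, 98 and 99 in Cxcl9, Cxcl10 and Cxcl11. That of Cxcl16, with its stalk and membrane span, holds 246. Over aligned coding bases, Cxcl2 and Cxcl3 were 89.8% identical, Cxcl1 and Cxcl2 78.7%, and Cxcl1 and Cxcl3 75.6%. The Cxcr3 ligands were less alike, at 59.8% for Cxcl9 and Cxcl10, 59.4% for Cxcl9 and Cxcl11 and 56.1% for Cxcl10 and Cxcl11. Reads of the ELR genes could in principle be shared between them, but the deposited posterior SD of the expected count was at most 0.14 counts for Cxcl1, Cxcl2 and Cxcl3 in either library, so the deposited estimate placed nearly every read in 1 gene.

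The libraries held 64187226 expected counts on annotated genes in replicate 1 and 49429893 in replicate 2, so counting error was slightly smaller in replicate 1. Levels are given as TPM, which corrects counts for transcript length and scales them to a common total in each library, and detection means that both libraries reached 1 TPM. By that rule 16.7% of all annotated genes and 40.0% of protein-coding genes were detected. All 8 macrophage markers were detected, with a summed TPM of 4863 in replicate 1 and 5494 in replicate 2, led by Lyz2. Markers of other cells were few. Of 9 neutrophil markers 3 were detected, with sums of 7.5 and 13.41 TPM in replicates 1 and 2 and Ly6g at 0. None of 6 dendritic cell markers was detected (sums 0.67 and 1.92 TPM, Cd209a at 0), and 2 of 7 of stroma and endothelium were, Vwf and Kdr (sums 6.07 and 4.93 TPM, Pdgfra at 0). Of 6 T and natural killer cell markers Cd4 alone was detected (sums 16.75 and 14.12 TPM, Ncr1 and Klrb1c at 0), and of 4 B cell markers Cd79b alone (sums 1.07 and 1.81 TPM). Of 4 platelet markers Pf4 alone was detected, which gave nearly all of their sums of 88.4 and 71.8 TPM, with Gp9 at 0. In such bulk RNA, fewer cells making a message and less message per cell cannot be told apart.

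Of the 7 CXC genes 6 were detected, against the 16.7% and 40.0% above. The 7 were chosen with earlier results of these data known, and of 8 other CXC ligands 1 was detected, Pf4. Their share is therefore not that of all CXC ligands. Cxcl10 and Cxcl2 were high (at least 100 TPM in both replicates), Cxcl1 and Cxcl16 moderate (at least 10), Cxcl9 and Cxcl11 low (at least 1), and Cxcl3 was under the detection level. Together the 7 messages made up 1452 TPM in replicate 1 and 898 TPM in replicate 2, or 0.145% and 0.0898% of all TPM. Cxcl10 held 52.4% and 67.1% of the family sum in replicates 1 and 2, and Cxcl2 held 32.7% and 22.0%. The median member stood at 77.8 TPM in replicate 1 and 24.2 TPM in replicate 2, a mean of 51.0 ± 37.9 (SD, n = 2).

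**Figure D1:**
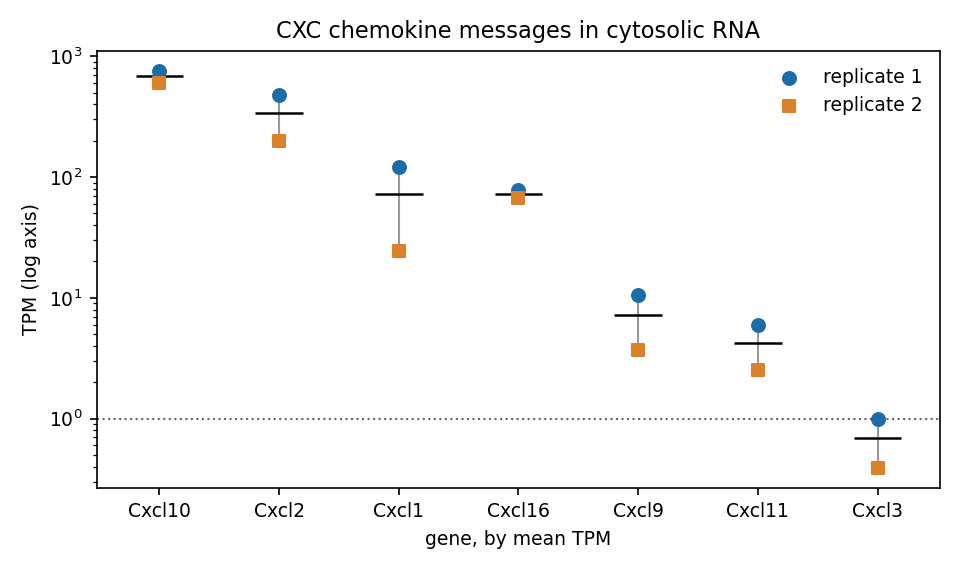
TPM of each CXC chemokine gene on a log axis, with replicate 1 as circles, replicate 2 as squares, the mean as a horizontal bar and the detection level of 1 TPM as a dotted line. Cxcl10 stood at 761 and 603 TPM at the top, Cxcl3 at 0.99 and 0.39 TPM at the bottom, and replicate 1 lay above replicate 2 for all 7 genes.

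Among the ELR ligands, Cxcl2 was the dominant message. Cxcl2 (ENSMUSG00000058427.10, chromosome 5 from 90903871 to 90905938, plus strand) stood at 474 TPM in replicate 1 and 197 TPM in replicate 2, a mean of 336 ± 196 (SD, n = 2), which ranked 96th among all annotated genes. It encodes macrophage inflammatory protein 2, a neutrophil attractant. Cxcl1 (ENSMUSG00000029380.11, chromosome 5 from 90891241 to 90893115, plus strand), which encodes the related attractant KC, stood at 121 and 24.2 TPM in replicates 1 and 2, a mean of 72.7 ± 68.6. Its SD was nearly as large as its mean, the widest relative spread of the 7 genes. Cxcl2 exceeded Cxcl1 by 3.91-fold within replicate 1 and by 8.16-fold within replicate 2.

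Cxcl3, the third ELR ligand, shares their chromosomal cluster and was the lowest member. Cxcl3 (ENSMUSG00000029379.10, chromosome 5 from 90786103 to 90789600, plus strand) stood at 0.99 TPM in replicate 1 and 0.39 TPM in replicate 2, a mean of 0.69 ± 0.424. Its 90 expected counts in replicate 1 and 29 in replicate 2 show that the message was measured, although it fell short of the detection level in both libraries. The summed TPM of Cxcl1, Cxcl2 and Cxcl3 was 597 in replicate 1 and 222 in replicate 2.

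Of the Cxcr3 ligands, Cxcl10 was abundant and the other two were low. Cxcl10 (ENSMUSG00000034855.13, chromosome 5 from 92346638 to 92348889, minus strand) stood at 761 TPM in replicate 1 and 603 TPM in replicate 2, a mean of 682 ± 112 (SD, n = 2), which ranked 40th among all annotated genes and 34th among protein-coding ones. Cxcl9 (ENSMUSG00000029417.9, chromosome 5 from 92321347 to 92328079, minus strand), a ligand known for its response to interferon gamma, stood at 10.6 and 3.73 TPM in replicates 1 and 2, a mean of 7.15 ± 4.84. Cxcl11 (ENSMUSG00000060183.6, chromosome 5 from 92359544 to 92365485, minus strand) stood at 5.92 and 2.51 TPM, a mean of 4.22 ± 2.41. Its annotated gene type is polymorphic pseudogene, a class for genes that encode protein in some strains and not in others. Whether these C57BL/6J cells made Cxcl11 protein was not measured, and the message level does not show it. Cxcl10 exceeded Cxcl9 by 72.0-fold in replicate 1 and 162-fold in replicate 2, and Cxcl11 by 128-fold and 240-fold, although the genes sit side by side within 44.1 kb. Ifng, interferon gamma itself, was under the detection level at 0 TPM in replicate 1 and 0.03 TPM in replicate 2. Whether this bears on the level of Cxcl9 was not tested.

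Cxcl16 was moderate and was the member that varied least between the libraries. Cxcl16 (ENSMUSG00000018920.11, chromosome 11 from 70453983 to 70459984, minus strand) stood at 77.8 TPM in replicate 1 and 66.8 TPM in replicate 2, a mean of 72.3 ± 7.80 (SD, n = 2). Its mean was almost that of Cxcl1, while its SD was far smaller.

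The order of the levels was Cxcl10, Cxcl2, Cxcl1, Cxcl16, Cxcl9, Cxcl11 and Cxcl3 by mean. Neighbours in it were called apart where their ranges over the libraries did not overlap and the difference within each library had the same sign. Cxcl10 was higher than Cxcl2 by 0.68 on the log2 scale in replicate 1 and 1.61 in replicate 2, and Cxcl2 higher than Cxcl1 by 1.97 and 3.03. Cxcl16 was higher than Cxcl9 by 2.88 and 4.16, and Cxcl11 higher than Cxcl3 by 2.58 and 2.69. These neighbours were apart. Cxcl1 and Cxcl16 were not, since the log2 difference of Cxcl1 from Cxcl16 was 0.64 in replicate 1 and -1.46 in replicate 2. Nor were Cxcl9 and Cxcl11, whose ranges overlapped, with log2 differences of 0.84 and 0.57.

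The summed Cxcr3 ligands exceeded the summed ELR ligands in both libraries. Cxcl9, Cxcl10 and Cxcl11 together stood at 777 TPM in replicate 1 and 609 TPM in replicate 2, against 597 TPM and 222 TPM for Cxcl1, Cxcl2 and Cxcl3. The log2 ratio of the sums was 0.38 in replicate 1 and 1.46 in replicate 2, a mean of 0.92 ± 0.76 (SD, n = 2). The sign was shared, but the SD was close to the mean, and with 2 libraries of 1 group no test was run. As a fold the ratio was 1.30 in replicate 1 and 2.74 in replicate 2, below that of Cxcl10 alone to Cxcl2 alone, 1.60 and 3.05.

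The ELR ligands, Cxcl9 and Cxcl11 were at least 2-fold higher in replicate 1 than in replicate 2, whereas Cxcl10 and Cxcl16 differed little. Ratios of replicate 1 to replicate 2 were taken from expected counts after TMM scaling, which sets the bulk of genes equal between libraries, with exact binomial (Clopper-Pearson) 95% intervals that cover counting error only. With 1 library on each side they compare these libraries and have no replicate check. Of the 7 members 5 were at least 2-fold higher in replicate 1, where 3.08% of 13298 genes with a mean expected count of at least 10 were. Of the 7 members 0 were at least 2-fold higher in replicate 2, where 3.52% of those genes were. Among the 6 detected members 4 were at least 2-fold higher in replicate 1, against 0.957% of detected genes. The median log2 ratio was 1.19 over the 7 members and 0.04 over all genes tested. The 7 were chosen with earlier results of these data known, so these shares are a description and not a test. Pf4, Cxcl14 and Ppbp, the other CXC ligands with enough counts, were not at least 2-fold higher in replicate 1.

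Cxcl1 differed most. It had 9990 expected counts in replicate 1 and 1631 in replicate 2, a ratio of 4.72 (interval 4.47 to 4.97), and 0.0538% of detected genes had a ratio as high. Cxcl9 followed with 2962 and 914 counts and a ratio of 2.50 (2.32 to 2.69). Cxcl3 had a ratio of 2.39 (1.56 to 3.77) and Cxcl2, on 47298 and 16007 counts, 2.27 (2.23 to 2.32). Cxcl11, with 1058 and 380 counts, had a ratio of 2.14 (1.90 to 2.42). The intervals of Cxcl3 and Cxcl11 reach below 2-fold, and those of Cxcl1, Cxcl2 and Cxcl9 do not. Cxcl10, with 74451 and 48061 counts, had a ratio of 1.19 (1.18 to 1.21), which 23.6% of detected genes reached, and Cxcl16, with 17249 and 12970 counts, 1.02 (1.00 to 1.05), which 51.8% reached. Over detected genes the SD of the log2 ratios, divided by the square root of 2 to give a value per library, was 0.28. The counting interval of Cxcl3 in log2, 0.64 to 1.91, was the widest of the members. It is for a ratio of 2 libraries and so is not on the scale of that SD.

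**Figure D2:**
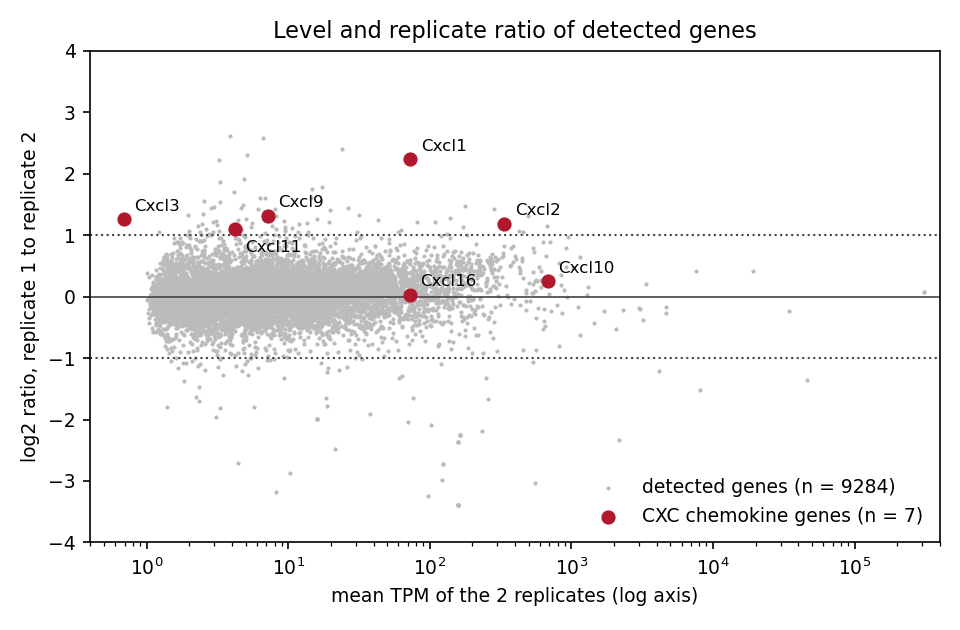
Log2 ratio of replicate 1 to replicate 2 (TMM-scaled expected counts) against mean TPM on a log axis, for 9284 detected genes with a mean expected count of at least 10 in grey and the 7 CXC genes in red, with dotted lines at 2-fold and 2 grey points beyond the vertical axis. Cxcl1 lies at 2.24, Cxcl2, Cxcl3, Cxcl9 and Cxcl11 lie between 1.10 and 1.32, and Cxcl10 and Cxcl16 lie at 0.25 and 0.03.

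Other measured differences ran alongside these ratios. The macrophage marker Adgre1, the F4/80 antigen, stood at 358 TPM in replicate 1 and 706 TPM in replicate 2, a log2 ratio of -1.07, and it was the 1 of 8 macrophage markers at least 2-fold apart. The summed neutrophil markers were lower in replicate 1, as given above, and 3 of the 4 with enough counts were at least 2-fold higher in replicate 2. So were 2 of 4 dendritic cell markers (Ccr7 and Flt3), 2 of 3 platelet markers (Ppbp and Itga2b) and 1 of 4 of stroma and endothelium (Pecam1). Over all genes tested this share was 3.52%. Ccr7, Flt3, Ppbp, Itga2b and Pecam1 were all under the detection level. Of the 3 neutrophil markers, S100a9 (3.14 and 7.31 TPM in replicates 1 and 2) and S100a8 (2.21 and 4.35 TPM) were detected, and Ltf was not. Flt3 had 3 and 26 counts in replicates 1 and 2, Ppbp 4 and 19, and Itga2b 7 and 19. In replicate 1, 0 markers of any list were at least 2-fold higher, against 3.08% of all genes tested. The part of the markers in the ratios was not tested.

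None of the other genes tested within 100 kb of a member was at least 2-fold higher in replicate 1, where 3.08% of all genes tested were. At that share hardly any would be expected among so few neighbours. Ppbp and Art3, both under the detection level, were at least 2-fold higher in replicate 2, where 3.52% of all genes tested were. The ELR genes span 119.8 kb of chromosome 5. Outside that span but within 100 kb of it, Pf4 had a log2 ratio of 0.10 and Mthfd2l, a folate enzyme of mitochondria, 0.13. Ppbp, platelet basic protein, had 4 counts in replicate 1 and 19 in replicate 2, a log2 ratio of -2.63. Around the Cxcr3 ligands, Naaa, Sdad1, Nup54 and Scarb2 had log2 ratios of -0.33, -0.04, 0.38 and -0.29. Around Cxcl16 the highest were those of Tm4sf5, 0.92 on 32 and 13 counts in replicates 1 and 2, and Psmb6, a proteasome subunit, 0.48. Some genes overlap members on the other strand, and whether the counting used strand is not given in the sources used here. Art3, which overlaps Cxcl10 and Cxcl11, had 9 counts in replicate 1 and 20 in replicate 2, a log2 ratio of -1.53. Gm2673, which overlaps Cxcl11, had none. Zmynd15, which overlaps Cxcl16, had 420 and 349 counts in replicates 1 and 2, against 17249 and 12970 for Cxcl16.

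CC chemokines were set beside the CXC genes. Of 12 CC ligands 10 were detected, with a median of 198 TPM in replicate 1 and 134 TPM in replicate 2. Of the 11 with enough counts 0 were at least 2-fold apart, where 3.08% of all genes tested were higher in replicate 1 and 3.52% higher in replicate 2. The median log2 ratio was 1.19 over the 7 CXC genes and 0.49 over the CC ligands, of which 8 lay above Cxcl10 and Cxcl16. Other CXC ligands with enough counts had log2 ratios of 0.10 for Pf4, 0.41 for Cxcl14 and -2.63 for Ppbp. Cxcl14 and Ppbp were under the detection level. Ccl3, macrophage inflammatory protein 1 alpha, came closest, at 1280 TPM in replicate 1 and 620 TPM in replicate 2, a log2 ratio of 0.98. Ccl2 and Ccl4, a monocyte attractant and macrophage inflammatory protein 1 beta, had log2 ratios of 0.82 and 0.78. Ccl5, the most abundant of the list, and Ccl22 ran the other way, at -0.27 and -0.77. The difference between the CXC and CC genes was not tested.

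**Figure D3:**
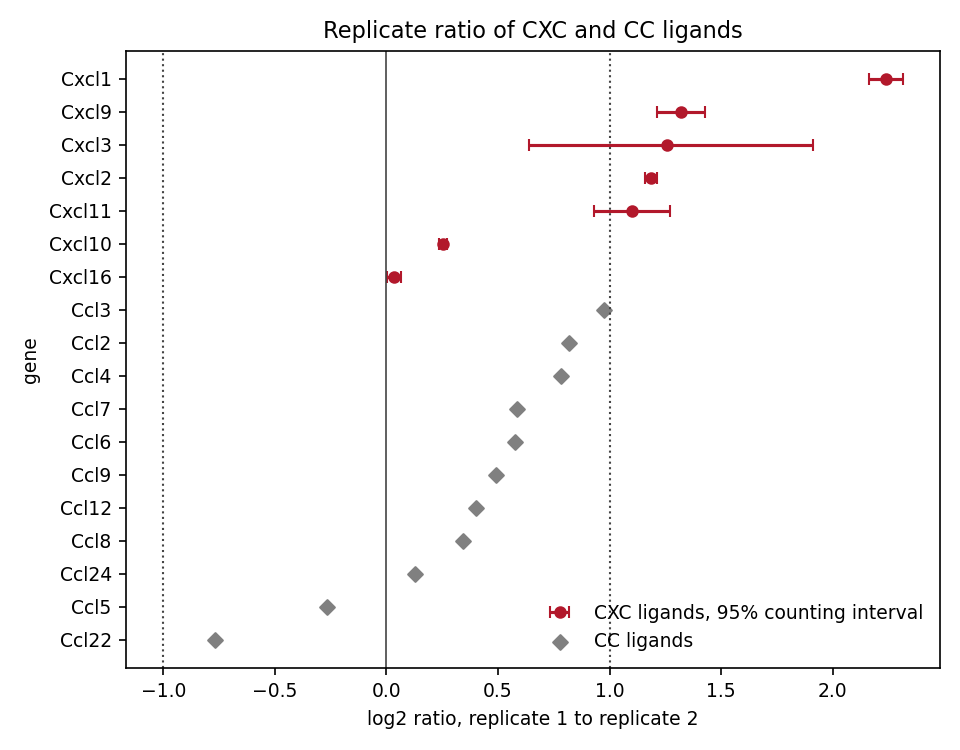
Log2 ratio of replicate 1 to replicate 2 for the 7 CXC genes (red circles, bars showing the 95% counting interval) and for 11 CC ligands (grey diamonds), with dotted lines at 2-fold. Other CXC ligands are not plotted. Cxcl1 stands furthest out at 2.24, and Ccl3 at 0.98 is the CC ligand nearest the 2-fold line.

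Each member had 1 leading transcript, the same in all 4 transcript tables (for each library, one made from the alignment and one from the reads). The 7 genes have 19 annotated transcripts, of which 9 are protein-coding and 8 are retained introns. In the alignment-based tables the leading transcript held 99.8% and 99.2% of Cxcl1 in replicates 1 and 2, 99.1% and 97.7% of Cxcl2, and 99.4% and 99.2% of Cxcl10. These genes were thus present almost wholly as their spliced coding message. Cxcl3-201 held 99.3% and 99.0%, and Cxcl11-201, which is annotated as protein-coding, held 89.5% and 86.9%. The rest of Cxcl11, 10.5% and 13.1%, was Cxcl11-202, the transcript annotated as a polymorphic pseudogene.

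The leading transcript held the smallest share in Cxcl16, and in Cxcl9 that share depended on the table. Cxcl16-201, the coding message, held 64.3% and 73.8% of the gene's TPM in replicates 1 and 2, a mean of 69.1 ± 6.73 (SD, n = 2). Cxcl16-202, a transcript annotated for nonsense-mediated decay, held 33.4% and 23.2%, a mean of 28.3 ± 7.22, and the read-based table gave it 32.4% and 22.5%. In TPM, Cxcl16-201 stood at 50.0 and 49.3 in replicates 1 and 2, and Cxcl16-202 at 26.0 and 15.5. The coding message of Cxcl16 was thus nearly equal in the libraries on this scale. For Cxcl9 the tables differed: the retained-intron transcript Cxcl9-202, of 370 bases, held 6.78% and 0% by alignment but 42.4% and 16.2% by reads in replicates 1 and 2. In counts the read-based share was small, 135 in replicate 1 and 12.0 in replicate 2, and TPM divides by length.

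**Figure D4:**
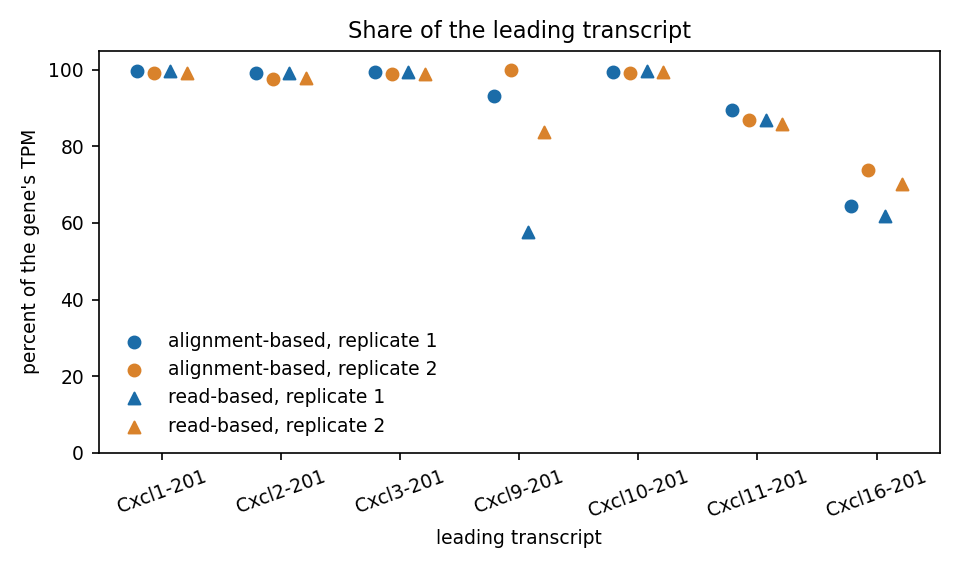
Percent of each gene's TPM held by its leading transcript, for replicates 1 and 2 in the alignment-based and the read-based tables. Cxcl1, Cxcl2, Cxcl3 and Cxcl10 lie above 97% in every table, Cxcl16-201 lies between 61.8% and 73.8%, and Cxcl9-201 ranges from 57.6% in the read-based table of replicate 1 to 100% in the alignment-based table of replicate 2.

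The 3′ UTRs divide the family as the motif does. AU-rich elements are built on the pentamer ATTTA, which was counted on the transcript strand of each leading transcript, overlaps included. Cxcl1, Cxcl2 and Cxcl3 hold 7, 11 and 5 of them, or 11.8, 15.0 and 7.75 per kb of 3′ UTR. Cxcl9, Cxcl10, Cxcl11 and Cxcl16 hold 3, 2, 1 and 2, or 1.22, 2.74, 0.821 and 1.41 per kb. Over 8428 leading transcripts of detected protein-coding genes the median was 1.26 per kb, and 7.18% reached 5 per kb. The overlapping pair ATTTATTTA occurs 2 times in Cxcl1 and 4 times in Cxcl2 and in no other member, while 0.842% of those 3′ UTRs hold at least 2 and 0.0712% at least 4. The densest 30 bases of each ELR ligand, with the pentamers in capitals, lie at chr5:90892602-90892631, chr5:90905327-90905356 and chr5:90787629-90787658 (mm10, plus strand, GENCODE M21).
Cxcl1: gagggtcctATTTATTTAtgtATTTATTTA
Cxcl2: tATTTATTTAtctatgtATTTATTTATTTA
Cxcl3: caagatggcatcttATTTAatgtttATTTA

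Cxcl3 thus has the pentamers without the overlapping pair. Among the proteins that bind such elements, Zfp36, tristetraprolin, stood at 437 TPM in replicate 1 and 232 TPM in replicate 2, a log2 ratio of 0.82. The other binding proteins of the regulator list had lower log2 ratios, 0.35 for Zfp36l1, 0.03 for Elavl1 and -0.09 for Khsrp. A match is a description of the letters and does not show that a protein bound there.

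**Figure D5:**
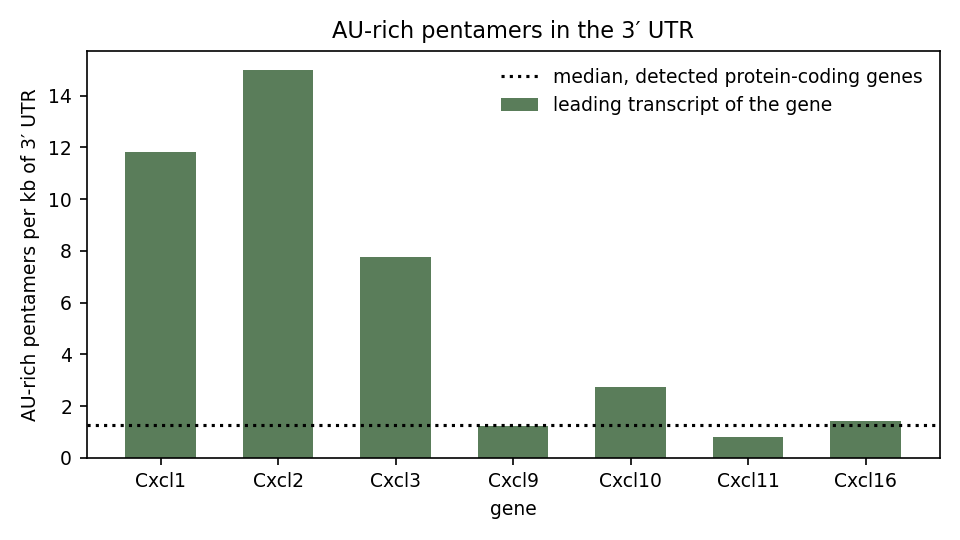
AU-rich pentamers per kb of 3′ UTR in the leading transcript of each CXC gene (bars), with the median over detected protein-coding genes as a dotted line at 1.26. Cxcl1, Cxcl2 and Cxcl3 reach 11.8, 15.0 and 7.75 per kb, and the other members lie at 2.74 or below.

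Promoters were read for Cxcl1, Cxcl2, Cxcl3, Cxcl9 and Cxcl10 from RefSeq sequences (GRCm38.p6, 250 bases before the start to 50 after it). The motifs searched on both strands were the NF-kB consensus, the core of the interferon-stimulated response element (GAAANNGAAA) and the AP-1 site (TGANTCA), with overlapping matches of the same motif counted as 1 site. A kB match was found in 4 of these 5 promoters and in 4.51% of 32851 mouse promoters of the same length. The ELR genes share the same 11 letters at 71, 97 and 73 bases before the start in Cxcl1, Cxcl2 and Cxcl3. They are shown in capitals with 25 bases on each side, at chr5:90891149-90891209, chr5:90903777-90903837 and chr5:90786003-90786063 (plus strand).
Cxcl1: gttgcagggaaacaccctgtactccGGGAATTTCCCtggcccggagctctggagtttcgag
Cxcl2: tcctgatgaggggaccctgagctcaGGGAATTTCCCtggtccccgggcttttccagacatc
Cxcl3: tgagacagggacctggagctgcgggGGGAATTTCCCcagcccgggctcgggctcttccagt

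Cxcl10 has a different layout, with 2 kB matches, which 0.167% of promoters hold, and a response element core, which 3.44% hold. Its 250 bases before the start (chr5:92348890-92349139, minus strand) carry, in capitals and in order, the response element core and both kB matches. An AP-1 match lies further down at 74 bases before the start, in lower case, and such a match was found in 7.81% of promoters.
Cxcl10: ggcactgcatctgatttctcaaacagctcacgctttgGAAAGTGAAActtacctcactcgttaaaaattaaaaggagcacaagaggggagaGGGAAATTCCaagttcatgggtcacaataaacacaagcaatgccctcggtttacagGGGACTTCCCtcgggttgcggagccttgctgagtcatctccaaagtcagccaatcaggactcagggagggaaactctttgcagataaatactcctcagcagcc

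No kB or response element match was found in the Cxcl9 window, which says only that these letters are not there, and its single AP-1 match lies after the start. The Cxcl3 promoter carries the same kB letters as those of Cxcl1 and Cxcl2, while the Cxcl3 message was under 1 TPM in both libraries.

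Other genes of the CXC system were mostly low. Of 8 other CXC ligands Pf4, platelet factor 4, alone was detected, at 88.3 TPM in replicate 1 and 71.4 TPM in replicate 2, a log2 ratio of 0.10. It is also in the platelet list, where Gp9 was at 0. Cxcl13, Cxcl15 and Cxcl17 had no count in either library. Of 10 receptors 2 were detected, Cxcr4, the receptor for Cxcl12, at 4.32 and 3.04 TPM in replicates 1 and 2, and Cxcr3 at 1.77 and 2.04 TPM. Cxcr2, through which the ELR ligands act, stood at 0 and 0.02 TPM, and Cxcr6, the receptor for Cxcl16, at 0.02 and 0.04 TPM. The cells thus held detected messages for 6 of the 7 members, low ones for Cxcr3 and Cxcr4, and hardly any for Cxcr2 and Cxcr6.

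Messages for proteins that cut, hold or release the ligands were present. Of 15 proteases 9 were detected, where 40.0% of protein-coding genes were. Of the 13 with enough counts 0 were at least 2-fold higher in replicate 1, where 3.08% of all genes tested were. At that share hardly any would be expected among so few genes. In replicate 2, Mmp9 and Dpp4, both under the detection level, were at least 2-fold higher, where 3.52% of all genes tested were. The lysosomal cathepsins Ctsb and Ctss led, at 1566 and 1078 TPM in replicate 1 and at 1856 and 1150 TPM in replicate 2. Adam17 and Adam10, which shed Cxcl16, stood at 27.0 and 15.5 TPM in replicate 1 and at 31.5 and 17.2 TPM in replicate 2. Elane, neutrophil elastase, was the lowest at 0.01 TPM in each. Of 8 proteoglycan genes 6 were detected and 0 of 8 were at least 2-fold apart. At the same shares of all genes tested, hardly any of 8 would be expected apart. Sdc4 and Sdc3, syndecans whose heparan sulfate can hold chemokines, stood at 320 and 161 TPM in replicate 1 and at 207 and 203 TPM in replicate 2, and Gpc1, a glypican, was the lowest at 0.13 and 0.17 TPM.

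Regulators of these messages were nearly all present. Of 23 genes that control CXC transcription or message stability 21 were detected, where 40.0% of protein-coding genes were. This list was written with earlier results of these data known. Over the 22 with enough counts the median log2 ratio was 0.12. Of these, 1 was at least 2-fold higher in replicate 1, where 3.08% of all genes tested were. Among so few genes 1 is close to that share. That gene was Ifnb1, interferon beta, at 13.3 TPM in replicate 1 and 5.78 TPM in replicate 2, a log2 ratio of 1.13. Irf7 stood at 658 and 561 TPM, and Irf1 at 275 and 224 TPM, in replicates 1 and 2; both are transcription factors of interferon responses. Stat2, which carries the interferon signal to the nucleus, stood at 84.4 TPM in replicate 1 and 98.1 TPM in replicate 2. Nfkbiz, a nuclear cofactor of NF-kB, stood at 265 TPM in replicate 1 and 165 TPM in replicate 2, a log2 ratio of 0.60.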

How the data were processed

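Cytosolic RNA was measured in 2 libraries of 1 group, each made from 1 µg of RNA per the labels. The authors deposited expected counts, TPM and FPKM per gene and transcript, from a transcriptome alignment, and the percent of its gene's TPM for each transcript, per the file headers. A further deposited transcript table, made from the reads, holds estimated counts and TPM. The text deposited beside the tables names mm10 and GENCODE M21. Which aligner, quantifiers and strand setting were used is not given in the sources used here. Deposited TPM values are scaled over all 81881 features. Of these, 26345 transfer RNAs and spike-ins, which hold 0.110% and 0.112% of expected counts in replicates 1 and 2, were left out of library sizes and ratios.

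Expected counts were rounded and scaled by TMM (edgeR 4.0.16, R 4.3.3), with 0.5 counts added only where a library had none. The ratio script was tested on simulated data. Sequences were read with Biopython 1.88 and tables with pandas 2.3.3. The alternatives were DESeq2 1.42.0 size factors, TPM ratios, read-based values, FPKM, TPM rescaled to protein-coding genes, other thresholds, and single replicates. All 7 members were named, and of each other list the members detected, up to 6 by mean TPM, and the lowest one; not all of these are reported here. Other genes named by their ratio, the neighbours and the sequence features were chosen after values were seen. The members and lists were chosen with earlier results of these data known.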

Additional observations from a re-analysis of the deposited data

How the results depend on the processing

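Counts of detected members, of members at least 2-fold apart and of shared leading transcripts changed by no more than 1.5 times in every alternative. The ratio of Cxcr3 to ELR ligands moved by less than the spread between replicates. Several of these outcomes were fixed in advance. FPKM and rescaled TPM cannot change a ratio within a library. Leaving out 1 of 2 replicates always moves a mean by less than the SD. Leading transcripts that are the same in all 4 tables are also the same in any part of them. The median member level of 51.0 TPM was 176 when TPM was rescaled over protein-coding genes alone and 90.5 in FPKM, since both change the scale, and 27.7 in the read-based table. Only 6 of 21 member levels on these scales stayed within 1 SD. In the read-based table Cxcl10 was at 337 and Cxcl16 at 37.3 TPM, and Cxcl2, at 84.9 TPM in replicate 2, no longer reached 100 in both replicates. With a single replicate that level ranged from 24.2 to 77.8 TPM, the log2 ratio of summed Cxcr3 to ELR ligands from 0.38 to 1.46, and detected members numbered 6 and 6. Cxcl3 passed the detection level with rescaled TPM or a count rule of at least 10 (7 members detected), and 4 members passed a TPM of 5. All 21 member ratios under DESeq2 size factors, deposited TPM and read-based counts stayed on their side of 2-fold. Of 13298 genes tested, 409 were at least 2-fold higher in replicate 1 and 468 in replicate 2; by deposited TPM these were 577 and 456, and by read-based counts, over 14893 genes, 472 and 815. With 1 group and 2 libraries no result has a test between conditions, and Cxcl3, at 90 and 29 counts, is the member that depth limits most. No paired analysis was possible because the series has 1 group.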
